A study of Mus musculus with 72 samples.

Results

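The genes described here are those whose messenger RNA had a fitted daily range above a set size in both the suprachiasmatic nucleus (SCN) and the liver of mice on a control diet, and the question is how far apart their daily peaks and the sizes of their swings lay in the 2 tissues. A gene was selected on its measured values, with no test of rhythm: a 24 h cosine curve was fitted to log2 CPM (counts scaled to a common library size) in the 18 control libraries of each tissue, and the distance from trough to peak of that curve, called the fitted range, had to be at least 0.5 log2 in both. Of 14491 genes in both gene count tables, 4769 passed in liver, 3543 passed in SCN and 1900 (13.1%) passed in both. Since control libraries chose these genes, control values are given as a description without a test. Times compared below as high and low were picked from the same values, so their separation is no test either. The tests below use libraries from mice on the second diet, which played no part in choosing the 1900. Genes named below as extremes of gap or range were also picked by their rhythm calls in those libraries. Their tests there are not independent of that pick.

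The study sequenced polyadenylated RNA from liver and from SCN cut out by laser from brain sections of C57BL/6J mice, 72 libraries in all. Mice ate either a methionine/choline deficient (MCD) diet or its isocaloric control freely, were housed singly for 10 days in a light/dark cycle and were killed on day 11, the first in constant darkness, every 4 h from circadian time 0 (CT0, the start of the subjective day) to CT20. Each tissue, diet and time had 3 libraries, 2 from males and 1 from a female by the labels, although the husbandry text names males only. The groups used are liver on control, SCN on control, liver on MCD and SCN on MCD, each with 18 libraries. The labels do not say which liver and SCN libraries came from 1 mouse, and p-values measure the spread between these samples. In bulk tissue, fewer cells of a type and less RNA per cell cannot be told apart.

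The SCN is the light-entrained pacemaker of the mammalian brain, and the liver clock takes its time from signals such as feeding, body temperature and glucocorticoids. Both run the same transcriptional loop: the activators BMAL1 (gene Arntl), CLOCK and NPAS2 switch on Per, Cry, Nr1d and PAR bZIP genes through E-box sites, PER and CRY proteins repress those activators, and NR1D1 and NR1D2 compete with ROR proteins to time Arntl, Npas2 and Nfil3. The PAR bZIP proteins DBP, TEF and HLF act on D-box sites, where NFIL3 competes with them.

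Total counts ran from 52.6 M to 86.2 M (M, mega) in the liver control libraries and from 23.3 M to 79.8 M in the SCN control libraries. The hepatocyte list (6 genes such as Alb and Apoa1) summed to 78141 to 122007 CPM in liver, and the SCN list (8 genes such as Avp and Vip) to 1779 to 3436 CPM in SCN. Of the hepatocyte genes, 3 of 6 were listed in SCN, at a sum of 4.25 to 31.7 CPM. In the SCN, 3 female control libraries, at CT0, CT4 and CT20, stood apart: their median correlation with the other SCN control libraries was 0.930, 0.885 and 0.866, against 0.949 or more for the rest. Their totals were 38.6 M, 27.5 M and 23.3 M, and a male CT0 library of 27.5 M did not stand apart to that degree. Without them 1825 genes passed the rule, of which 1513 were among the 1900. One liver control library at CT8, called a here, had the lowest correlation in liver (0.954), and without it 1823 genes passed. Liver libraries also fell into 2 kinds by the level of the mitochondrial transcript mt-Nd6, on control 8 at 65.3 to 133 CPM and 10 at 568 to 1035 CPM, and on MCD 13 at 33.0 to 96.8 and 5 at 380 to 438, unevenly over the times. With this kind as a term in the fit 1928 genes passed, of which 1829 were among the 1900, and on MCD 227 members were called in both tissues.

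Across the 1900 genes the peaks of the 2 tissues lay at nearly every distance from each other. Peaks fell within 3 h in 576 (30.3%), the SCN peaked 3 to 9 h earlier in 504 (26.5%) and 3 to 9 h later in 446 (23.5%), and the peaks were 9 h or more apart in 374 (19.7%). Among the 12591 genes outside the rule the same 4 shares were 26.6%, 24.7%, 24.3% and 24.4%. The SCN peak came first, on the shorter way round the clock, in 1021 genes (53.7%). The median fitted range was 0.88 log2 in liver and 0.89 in SCN, and the range was larger in liver in 937 genes and larger in SCN in 963. Without the 3 SCN females named above, 1005 of the 1825 genes that passed had the larger range in liver, 619 of them among the 937. Peaks then fell within 3 h in 550 genes, of which 370 were among the 576. Levels of many members were low, with a median of 1.74 CPM in liver and 4.41 CPM in SCN, and 1098 had a mean of at least 1 CPM in both tissues. At a stricter range of 1 log2 in both tissues 354 genes were left, 122 of them with peaks within 3 h.

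At the edge of the rule, Rims2 (fitted range 0.8943 log2 in liver and 0.5002 in SCN) and Kcnh7 (1.708 and 0.5003) were just inside. Prr18 (0.9375 and 0.4999) was just outside, as was Mob3b, whose SCN range rounds to 0.5.

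How well these rhythms appeared again was tested in the MCD libraries, with edgeR's quasi-likelihood test of the 24 h cosine and sine components and Benjamini-Hochberg adjustment over all genes tested, at an adjusted p under 0.05. In liver, 563 of 1764 members tested were called rhythmic (31.9%, against 27.4% of all genes tested). In SCN, 474 of 1900 were called (24.9%, against 13.6% of all genes). Both tissues were called in 234 of 1764 members (13.3%, against 5.21% of all genes tested in both). Most members selected on control were therefore not called in both tissues on the other diet.

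For the 234 genes called in both tissues on MCD, the difference of peak time between SCN and liver on MCD lay within 3 h of the control difference in 185 of 234 (79.1%), with a median change of 1.21 h. Over all 1900 members it did so in 811 (42.7%), with a median change of 3.73 h, and outside the rule in 36.9% of genes. Among the 502 genes outside the rule that were also called in both tissues on MCD, it did so in 263 (52.4%), with a median change of 2.84 h. The 234 were picked by their MCD rhythms, and a well-fitted rhythm on MCD has a better-fixed peak, so these shares describe the set and test nothing. On control, 88 of the 234 peaked within 3 h in the 2 tissues, 78 earlier in SCN, 35 later in SCN and 33 in near-opposite phase. Their median levels were 18.9 CPM in liver and 27.7 CPM in SCN, above those of the members as a whole.

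**Figure D1:**
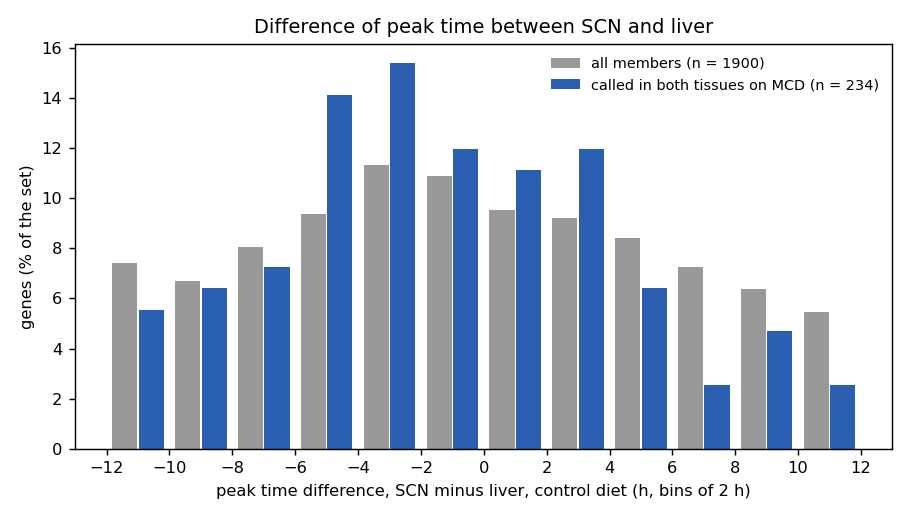
Share of genes (y axis, % of each set) by the difference of peak time, SCN minus liver, on the control diet (x axis, h, bins of 2 h). Grey bars are all 1900 members and blue bars the 234 called rhythmic in both tissues on MCD. The grey bars are spread over all differences. The class bounds of 3 and 9 h fall inside bars, so class counts cannot be read from them. By count, the 234 held 88 genes within 3 h, 78 earlier in SCN by 3 to 9 h, 35 later by 3 to 9 h and 33 opposite.

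Peak times were not spread evenly over the day in either tissue. Sorted into 4 h windows centred on the sampling times, the largest SCN group among the 234 was the window around CT8 with 71 genes (30.3%), followed by CT20 with 53. In liver the windows around CT12 and CT16 held the most of the 234, with 50 and 48 genes. Over all 1900 members the SCN windows around CT8 and CT20 were again the largest, with 504 and 339 genes, but in liver the largest were those around CT4 and CT8, with 413 and 395, and those around CT12 and CT16 held 294 and 270. The most common pairing, 27 genes, was a liver peak around CT12 with an SCN peak around CT8, and it held Per1, Tef and Coq10b. Marker sums of other cells in the SCN control libraries also moved with time: the erythrocyte list (Hba-a1 and Hbb-bs) had a fitted range of 1.82 log2 with a peak at CT19.1, the endothelium list 0.74 with a peak at CT20.8, the hepatocyte list 0.97 with a peak at CT22.9, and the list of hypothalamic genes from outside the SCN (2 of 5 listed, Oxt and Pomc) 1.29 with a peak at CT3.59. Oligodendrocyte and astrocyte lists had ranges of 0.12 and 0.08 log2. Their part in the SCN peak times was not tested.

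All core clock genes that met the rule peaked earlier in SCN. Of 20 listed genes 19 were in both tables and 17 were members, and all 17 peaked earlier in SCN than in liver on control, by a median of 3.99 h. Clock and Rora were not members, with a fitted range of 0.41 log2 for Clock in SCN and 0.37 for Rora in liver, and Rorb was not in both tables. Clock peaked 8.90 h earlier in SCN on control. Rora was in near-opposite phase, with peaks 11.66 h apart on control and 11.21 h on MCD (95% interval 9.65 to 12.76, adjusted p = 6.25e-10 by edgeR's quasi-likelihood test), so the shared direction holds for the 17 members and not for the whole list. On MCD all 17 again peaked earlier in SCN, by a median of 4.17 h and from 1.16 to 8.00 h, and each of the 17 intervals (95%, delta method) lay below 0. The joint test of peak and range between tissues on MCD called 17 of 17, against 27.9% of all genes tested and 469 of 1764 members (26.6%). The share over all members was thus near the background. Without the SCN females at CT0, CT4 and CT20, 16 core clock genes remained members on control and 16 were called on MCD. Hlf had the weakest call, at an adjusted p of 0.0422 by edgeR's quasi-likelihood test, and lost it with the kind of liver library as a term (adjusted p = 0.0501) and when any of 21 single libraries was left out, so its tissue difference was the least stable of the 17.

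**Figure D2:**
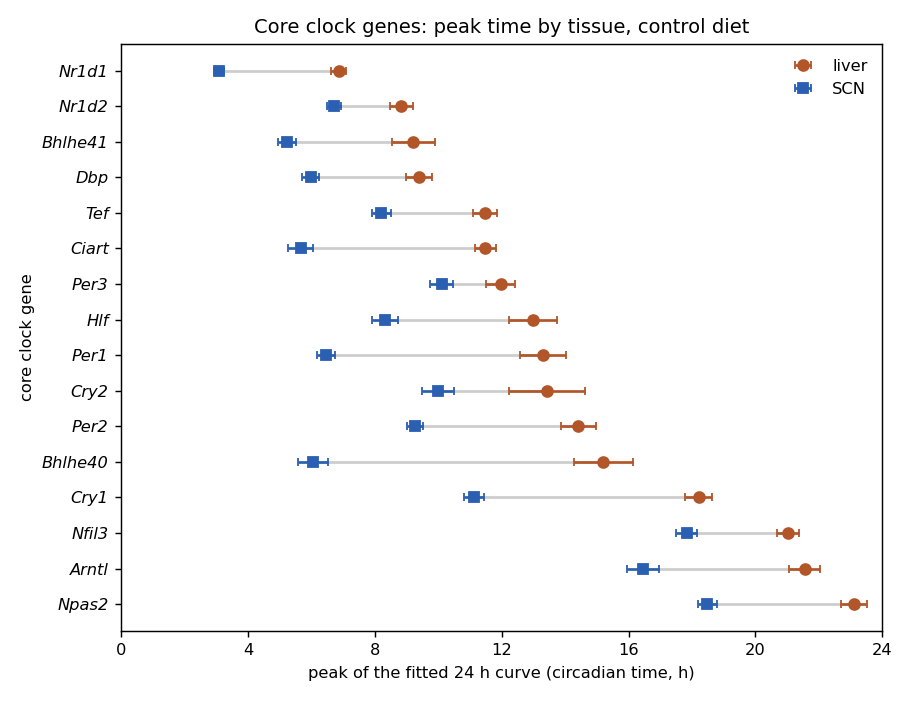
Peak time of the fitted 24 h curve (x axis, circadian time in h) for 16 of the 17 core clock members (y axis) in liver (brown circles) and SCN (blue squares) on the control diet, with horizontal bars of 1 SE from the fit to 18 libraries. Each blue square lies to the left of its brown circle, from 1.85 h for Per3 to 9.16 h for Bhlhe40.

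The gap between tissues ranged widely among these genes. Among the repressors, Per2, a period protein, was measured in SCN on control at 18.6, 18.6 and 21.0 CPM at CT0, 86.4, 62.2 and 71.2 at CT4, 163, 135 and 133 at CT8, 171, 162 and 125 at CT12, 44.6, 26.4 and 37.3 at CT16, and 18.7, 14.8 and 28.5 at CT20. In liver on control it was 19.7, 21.8 and 25.9 CPM at CT0, 12.8, 11.2 and 42.7 at CT4, 30.9, 40.7 and 102 at CT8, 103, 101 and 108 at CT12, 178, 89.5 and 157 at CT16, and 78.8, 82.4 and 26.8 at CT20. SCN libraries were thus highest at CT8 and CT12 and had come down by CT16 with no overlap with CT12. In liver the mean was highest at CT16, but 1 of its 3 libraries lay below all 3 at CT12. The female liver library was the highest of its time at CT4 and CT8 and the lowest at CT20, and the sex term of the fit adjusts the mean level only, not the peak time. The fitted peaks were CT9.27 in SCN (SE 0.26 h) and CT14.4 in liver (SE 0.55 h). On MCD the SCN peak was earlier by 4.17 h (95% interval -5.37 to -2.97, adjusted p = 2.5e-05 by edgeR's quasi-likelihood test, n = 18 libraries per tissue).

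Cry1, a cryptochrome that represses CLOCK and BMAL1 late in the cycle, had one of the widest gaps. In SCN on control its 3 libraries were lowest at CT0 and CT20, at 29.5 to 45.9 CPM, and highest at CT12, at 98.6, 99.1 and 85.0. In liver they were lowest at CT4 and CT8, at 5.08 to 15.3 CPM, and highest at CT20, at 62.3, 54.7 and 44.9. At CT20, the liver maximum, SCN libraries were back near their minimum. The fitted peaks were CT11.1 in SCN and CT18.2 in liver, 7.09 h apart (SE 0.53), and on MCD 7.82 h apart (95% interval -8.76 to -6.87, adjusted p = 9.17e-12 by edgeR's quasi-likelihood test). Nr1d2, which encodes REV-ERBbeta, was only 2.13 h apart on control, and its interval on MCD, -2.78 to -1.22, did not overlap that of Cry1. No test of one gene's gap against another's was run.

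Per1 peaked 6.85 h earlier in SCN (SE 0.78), at CT6.45 against CT13.3, and Per3 only 1.85 h earlier (SE 0.58), at CT10.1 against CT12.0. The period genes thus ran in a different order in the 2 tissues: Per1 came first in SCN and Per3 first in liver. The Per1 and Per3 liver peaks had SEs of 0.72 and 0.45 h, so their order in liver is not fixed beyond error. Bhlhe40 (DEC1), a repressor that binds E-boxes, had the widest gap, with peaks at CT6.04 in SCN and CT15.2 in liver. Its relative Bhlhe41 (DEC2) was 3.99 h apart. Ciart, a repressor also called CHRONO, peaked at CT5.66 in SCN and CT11.5 in liver, 5.82 h apart (SE 0.51), and 4.61 h apart on MCD (95% interval -5.44 to -3.78).

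Among the activators and their regulators, Arntl was measured in SCN on control at 81.5, 64.0 and 76.0 CPM at CT16 and at 45.2, 41.7 and 44.6 at CT8. In liver it was 39.5, 32.2 and 36.4 CPM at CT20 and 2.76, 2.43 and 0.968 at CT8. The CT8 libraries did not overlap the maximum in either tissue, but the fall was far deeper in liver. The fitted range was 4.54 log2 in liver and 0.99 in SCN, and the peak 5.11 h earlier in SCN (CT16.5 against CT21.6). Npas2, a paralog of Clock that pairs with BMAL1, showed the same contrast, with ranges of 8.03 and 1.69 log2 and peaks 4.64 h apart. Nr1d1, encoding REV-ERBalpha, was the first of the 17 to peak after CT0 in both tissues, at CT3.08 in SCN and CT6.86 in liver. Nfil3, the competitor at D-box sites, peaked at CT17.8 and CT21.0.

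The PAR bZIP factors kept intermediate gaps. Dbp, which drives detoxification genes in liver, was at 323, 342 and 320 CPM in SCN at CT8 and at 54.4, 72.5 and 41.5 at CT16. In liver it was at 108, 237 and 172 CPM at CT8 and at 0.473, 0.925 and 0.480 at CT0. High and low libraries were separate in both tissues. The Dbp peaks were 3.41 h apart on control and 3.63 h on MCD (95% interval -4.52 to -2.74, adjusted p = 1.22e-12 by edgeR's quasi-likelihood test), those of Tef 3.27 h and 2.69 h, and those of Hlf 4.67 h and 4.60 h. The Hlf rhythm in liver on MCD was not called (adjusted p = 0.167 by edgeR's quasi-likelihood test), and the interval of its MCD gap was wide (-8.20 to -0.99 h).

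The swing of the clock genes was mostly larger in liver. On control 15 of 17 had the larger fitted range in liver, with a median of 2.97 log2 in liver and 1.61 in SCN. Per2 (2.97 in liver, 3.42 in SCN) and Hlf (1.19 and 1.29) were the exceptions. On MCD the range was larger in liver in 16 of 17, and the 95% interval of the difference lay below 0 in 14 and included 0 in 3 (Per2, Bhlhe40 and Hlf). For Per2 the MCD difference was -0.05 log2 (interval -1.11 to 1.02). Over the 234 members called in both tissues, 145 had the larger range in liver on control, and 117 of these did so on MCD as well, while 57 were larger in SCN on both diets.

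**Figure D3:**
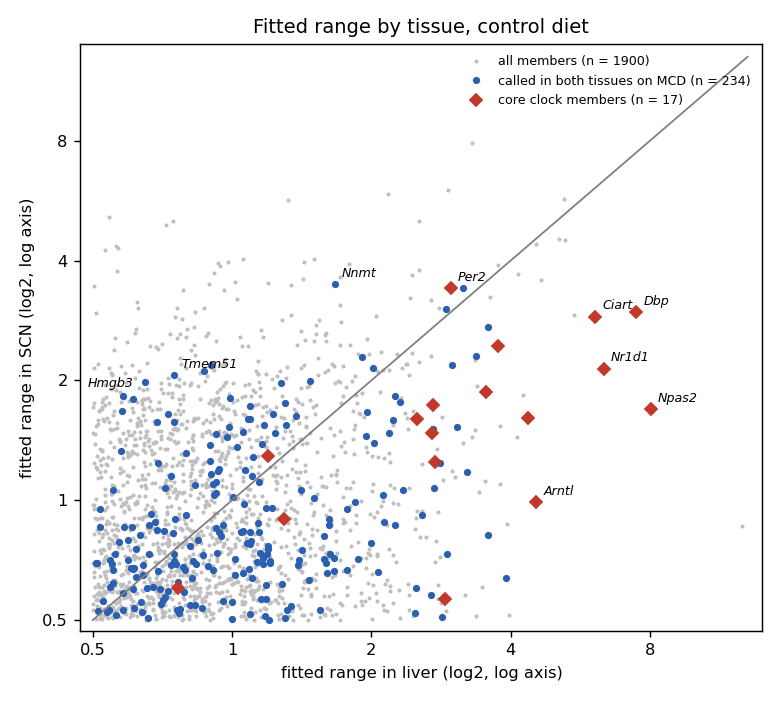
Fitted 24 h range in liver (x axis) and SCN (y axis) on the control diet, in log2 units on log axes. Grey points are all 1900 members, blue points the 234 called in both tissues on MCD and red diamonds the 17 core clock members, and the line marks equal ranges. Npas2, Dbp, Nr1d1, Ciart and Arntl lie far below the line and Nnmt, Hmgb3 and Tmem51 above it.

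Promoter sequence of the clock members is shown because all of their peaks came earlier in SCN and the named motifs are the textbook sites of this loop. RefSeq windows (GRCm38.p6, from 250 bases before to 50 after each transcript start) were matched by symbol for 10298 of the 14491 genes, 1268 of the 1900 members and 14 of the 17 clock members. The stretches below are parts of these windows, are written 5′ to 3′ on the gene's strand and carry the motif in capitals: the E-box CACGTG, searched on both strands, in the first 5, 2 D-boxes (TTATGTAA) in Per3, and in Nfil3 the ROR element core, read here on the opposite strand of TAGGTCA. The shown Ciart E-box is 1 of 3 in its window, Tef has a further E-box in its other window, and 1 of 2 Arntl windows also holds a ROR element core, which is not printed. The printed stretches are Per1 chr11:69098743-69098828 (+ strand), Cry1 chr10:85185069-85185154 (- strand), Ciart chr3:95882299-95882384 (- strand), Bhlhe41 chr6:145865528-145865613 (- strand), Tef chr15:81802506-81802591 (+ strand), Per3 chr4:151044776-151044910 (- strand) and Nfil3 chr13:52981040-52981091 (- strand).
Per1: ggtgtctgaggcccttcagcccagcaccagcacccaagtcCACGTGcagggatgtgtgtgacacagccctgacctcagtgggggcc
Cry1: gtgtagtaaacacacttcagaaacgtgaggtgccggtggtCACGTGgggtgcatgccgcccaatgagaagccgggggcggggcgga
Ciart: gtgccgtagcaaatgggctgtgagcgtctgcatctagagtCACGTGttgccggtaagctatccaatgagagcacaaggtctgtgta
Bhlhe41: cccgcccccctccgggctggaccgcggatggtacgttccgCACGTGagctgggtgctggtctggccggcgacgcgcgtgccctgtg
Tef: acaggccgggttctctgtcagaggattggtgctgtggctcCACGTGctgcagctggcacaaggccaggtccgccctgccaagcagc
Per3: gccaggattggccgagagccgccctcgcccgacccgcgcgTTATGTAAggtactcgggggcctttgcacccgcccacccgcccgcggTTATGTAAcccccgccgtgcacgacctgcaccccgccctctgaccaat
Nfil3: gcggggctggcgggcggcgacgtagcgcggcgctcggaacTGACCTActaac

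The genes that share an E-box in this window did not share a gap: Cry1, Per1 and Ciart were 7.09, 6.85 and 5.82 h apart, Bhlhe41 and Tef 3.99 and 3.27 h. Per3, with 2 D-boxes, had the smallest gap of the 17. An E-box stood in the window of 5 of 14 clock members, of 12.3% of all members and of 11.8% of the genes in both tables, so its share over all members was near the background. Over all 27025 genes with a window it was 8.09%. Among the 234 called in both tissues the share was 18.8%, and by class it was 25.0% of genes earlier in SCN, 19.0% of those later, 15.4% of those within 3 h and 12.5% of those opposite. The D-box (TTATGTAA or TTACGTAA, both strands) was in 1.66% of members and 0.835% of genes in both tables, and the ROR element core (TAGGTCA or TGGGTCA, both strands) in 6.55% and 6.05%. A match is a description of letters only, and for the genes without one, Dbp and Nr1d1 among them, these letters were not in the window.

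**Figure D4:**
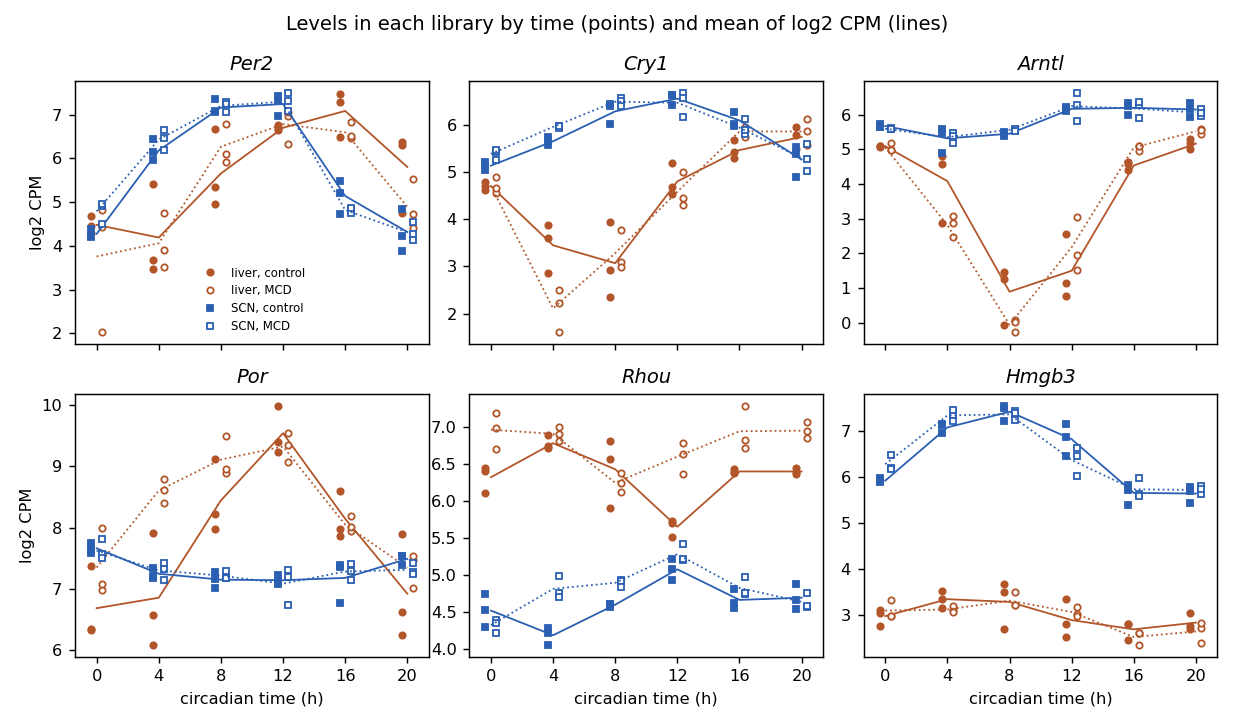
Log2 CPM in each library (y axis) by circadian time (x axis, h) for Per2, Cry1, Arntl, Por, Rhou and Hmgb3, liver as brown circles and SCN as blue squares, control filled with solid lines and MCD open with dotted lines. Lines join the means of 3 libraries. Per2 and Cry1 rise and fall earlier in SCN, Arntl falls further in liver, Por and Rhou run in near-opposite phase and Hmgb3 swings mainly in SCN.

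Genes known to cycle in many organs did not all follow the clock genes. Of 9 listed, 6 were members, and 4 of these peaked earlier in SCN. Coq10b, which encodes a coenzyme Q binding protein, resembled the clock genes: it was at 79.6, 81.0 and 86.9 CPM in SCN at CT4 and 27.0, 33.6 and 21.6 at CT20, and in liver at 61.1, 53.8 and 36.7 at CT12 and 8.23, 8.01 and 11.3 at CT4. Its high and low libraries did not overlap in either tissue, and its peaks were 5.36 h apart (SE 0.65) on control and 4.46 h on MCD (95% interval -5.50 to -3.42). Tsc22d3 (GILZ), a glucocorticoid-induced gene, was 3.76 h earlier in SCN and 4.34 h on MCD. Lonrf3 was 5.16 h earlier with an SE of 1.99 h and was not called rhythmic in SCN on MCD (adjusted p = 0.331 by edgeR's quasi-likelihood test). Wee1, a mitotic kinase gene under E-box control, peaked almost together in the 2 tissues, at CT11.2 in SCN and CT12.3 in liver, and its MCD interval, -1.75 to 1.40 h, included 0. Its rhythm still differed on MCD (adjusted p = 2.07e-08 by edgeR's quasi-likelihood test), with a range of 2.75 log2 in liver and 0.75 in SCN. Fmo2 peaked 2.23 h later in SCN (SE 1.62).

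Por, the electron donor of microsomal cytochrome P450 enzymes, was nearly antiphasic. In liver on control it was 81.6, 81.1 and 166 CPM at CT0, 95.4, 68.2 and 241 at CT4, 301, 254 and 556 at CT8, 1014, 605 and 677 at CT12, 254, 232 and 387 at CT16, and 99.1, 76.1 and 239 at CT20. In SCN it was 202, 216 and 192 CPM at CT0, 163, 148 and 146 at CT4, 156, 143 and 130 at CT8, 150, 140 and 135 at CT12, 169, 165 and 110 at CT16, and 187, 186 and 168 at CT20. All liver libraries at CT12 lay above those at other times, and the SCN libraries at CT0 lay above those at other times. The peaks were CT11.8 in liver and CT22.8 in SCN, 10.98 h apart (SE 0.81), with ranges of 2.84 and 0.51 log2, so Por was close to the edge of the rule in SCN and fell to 0.42 there without the 3 females that stood apart. On MCD the peaks were 9.90 h apart and the rhythms differed (adjusted p = 2.15e-07 by edgeR's quasi-likelihood test).

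Other members with peaks farthest apart, among those of at least 1 CPM in both tissues and called in both on MCD, were Gss, Cables1, Sik1, Arl4d, Rhou, Slc25a44 and Mov10. That pick used the MCD libraries, so the MCD tests of these genes are not independent of it. Rhou, an atypical small GTPase, was at 46.0, 52.4 and 53.2 CPM in liver at CT12 and 107, 119 and 105 at CT4. In SCN it was at 37.4, 30.7 and 33.9 CPM at CT12 and 18.7, 19.5 and 16.7 at CT4. The time at which liver libraries were lowest was thus the time at which SCN libraries were highest, with no overlap between CT4 and CT12 in either tissue. The peaks were 11.29 h apart on control (SE 1.74) and 9.89 h on MCD (adjusted p = 1.41e-07 by edgeR's quasi-likelihood test). Slc25a44, a mitochondrial carrier of branched-chain amino acids, had its highest mean in liver at CT16 (165, 149 and 179 CPM) and in SCN at CT8 (89.7, 75.6 and 81.2). These values overlapped those of CT20 in liver and of CT4 in SCN. Its peaks were 11.20 h apart (SE 0.99) and 10.74 h on MCD (adjusted p = 0.000357 by edgeR's quasi-likelihood test). Sik1, a salt-inducible kinase that responds to light in the SCN, had a strong SCN rhythm (range 1.83 log2, peak CT4.92) and a weak one in liver (0.58, peak CT16.5 with an SE of 2.68 h).

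Single libraries weighed on the values of several of these genes, while their gaps stayed wide. Gss, glutathione synthetase, was at 107 CPM in liver library a at CT8, against 49.5 and 49.1 in the other 2 libraries of that time. Its gap was 11.75 h with and without that library. Its liver peak on MCD was CT6.22 and its gap 9.57 h (adjusted p = 0.00012 by edgeR's quasi-likelihood test). Arl4d was listed at 0 in the SCN females at CT4 and CT20, and without the 3 SCN females its gap moved from 11.47 to 8.32 h and its SCN range from 1.80 to 0.49 log2. Mov10 was listed at 0 in the CT4 female, and its gap moved from 10.97 to 8.51 h without the 3 females. Cables1 had a gap of 11.70 h with an SE of 2.78 h, and without the 3 females a gap of 11.01 h and an SCN range of 0.47 log2. The cause of the values at 0 was not tested.

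Among members called in both tissues on MCD, Hmgb3 and Tmem51 were named for a larger swing in SCN and kept it on MCD. Hmgb3, a high-mobility group chromatin protein, was in SCN at 187, 181 and 149 CPM at CT8 and 43.5, 54.9 and 52.3 at CT20, and in liver at 12.7, 11.2 and 6.46 CPM at CT8 and 6.48, 6.80 and 8.22 at CT20. The SCN times did not overlap and the liver times did. Its ranges were 1.99 log2 in SCN and 0.65 in liver, the difference on MCD was 1.15 log2 (95% interval 0.78 to 1.52), and the peaks were 2.16 h apart on control and 0.13 h on MCD. Tmem51, a membrane protein gene, was in SCN at 102, 97.2 and 90.1 CPM at CT0 and 20.4, 26.3 and 19.6 at CT12. In liver it stayed between 3.62 and 11.8 CPM. Its difference of range on MCD was 0.98 log2 (interval 0.42 to 1.54), with the SCN peak 7.17 h earlier. Nnmt (3.49 in SCN, 1.67 in liver), Krt8 (2.18 and 0.90) and Mov10 (2.12 and 0.87) also had larger SCN ranges on control. Without the 3 SCN females these differences shrank from 1.82 to 0.38 log2 in Nnmt and from 1.28 to 0.02 in Krt8 and turned to -0.26 in Mov10, and the intervals on MCD included 0 for all 3.

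Rgs16, Dhrs9, Nat8f7 and Nat8f3 had large swings in both tissues. Rgs16, a regulator of G protein signalling known for its SCN rhythm, had ranges of 3.57 log2 in liver and 2.73 in SCN, with peaks at CT9.80 and CT5.05. Nat8f7 and Nat8f3, N-acetyltransferase family genes, peaked 7.20 and 7.01 h earlier in SCN and 6.93 and 6.27 h on MCD. These 2 genes are close paralogs and may share reads, so they are not independent. Dhrs9, a retinol dehydrogenase, was nearly antiphasic (peaks CT0.26 in liver and CT10.8 in SCN) at a mean of 1.16 CPM in SCN. Its liver library a at CT8 was at 17.1 CPM, against 2.55 and 0.936 in the other 2.

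**Figure D5:**
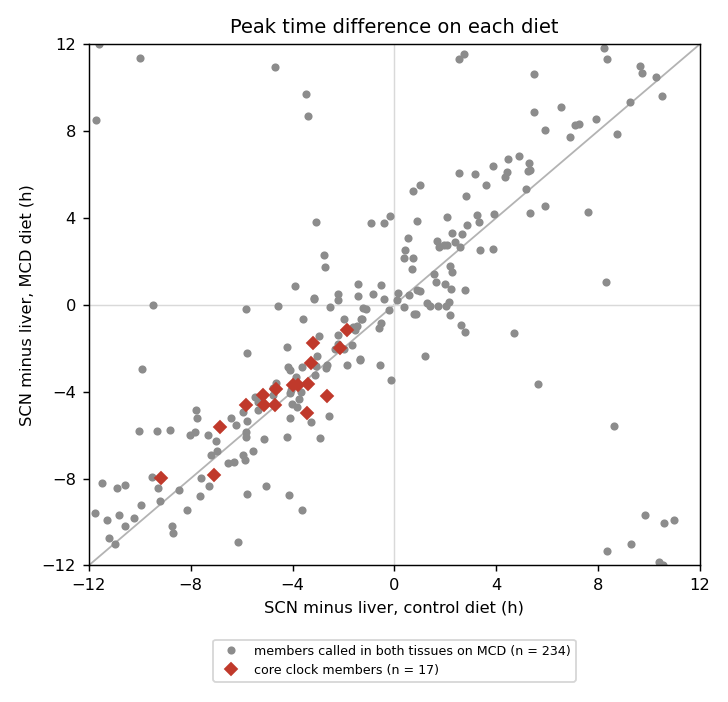
Difference of peak time, SCN minus liver, on the control diet (x axis, h) and on MCD (y axis, h). Grey points are the 234 members called in both tissues on MCD and red diamonds the 17 core clock members, and the line marks equal differences. All 17 diamonds lie below 0 on both axes, and 185 of the 234 points lie within 3 h of the line on the 24 h circle, so that points near opposite corners are close.

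Heat shock genes peaked later in SCN, most of them by less than 3 h. Of 13 listed genes 9 were members, 8 of these peaked later in SCN than in liver on control, 6 of the 9 within 3 h, and the fitted peaks of the 8 were later on MCD as well, with an interval that included 0 for Cirbp (-1.91 to 3.35 h) and Dnajb1 (-0.60 to 3.63 h). Rhythm was called in both tissues on MCD for 8 of the 9, all but Hspa1b (adjusted p = 0.0609 in liver by edgeR's quasi-likelihood test), against 5.21% of all genes tested, and a tissue difference for 5 of the 9, against 27.9%. Hspa1b, an inducible HSP70 gene, was at 16.7, 8.21 and 15.8 CPM in SCN at CT16 and 2.72, 2.55 and 3.98 at CT4, and in liver at 22.9, 23.2 and 17.9 at CT16 and 7.11, 4.65 and 3.80 at CT4. The 2 times did not overlap in either tissue. Its peaks were CT18.8 in SCN and CT14.6 in liver, 4.22 h apart (SE 1.12) and 4.99 h on MCD (95% interval 2.08 to 7.89, adjusted p = 0.0172 by edgeR's quasi-likelihood test). Hspa1a was 5.16 h later in SCN, and as a near-identical neighbour of Hspa1b it may share its reads. Hspa8, the constitutive HSC70, was 4.46 h later. Hsph1, Dnajb1, Hsp90aa1 and Hspb1, also chaperone genes, were 2.58, 2.26, 1.95 and 0.99 h later, and the cold-inducible Cirbp 2.23 h later. For Hspb1, Hsp90aa1 and Cirbp the gap was under 2 SE (SE 1.07, 1.00 and 1.54 h). Rbm3, the other cold-inducible gene, was 2.97 h earlier in SCN. The call for Hspa1b was lost without the SCN library 1 at CT20, where it was at 37.3 CPM against 7.78 and 7.75, and by limma-voom (adjusted p = 0.0612). Hspb1 lost its call by limma-voom and without the 3 SCN females, and Hspa1a, Hspb1 and Hspa1b each lost it without the libraries of at least 1 replicate number.

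Of 14 listed genes of protein folding in the endoplasmic reticulum 6 were members, and the fitted peaks of all 6 came earlier in SCN on control, by 3.64 h (Manf) to 6.92 h (Sdf2l1). With SEs of 2.92 h for Manf and 2.10 h for Hspa5, no order can be read for these 2. On MCD the liver rhythm of Sdf2l1 and Creld2 was not called (adjusted p = 0.925 and 0.442 by edgeR's quasi-likelihood test), and no order of their peaks can be read there. A tissue difference was called on MCD for 4 of the 6, against 27.9% of all genes tested. Herpud1, a component of the degradation machinery, was at 599, 516 and 330 CPM in liver at CT12 and 90.7, 170 and 111 at CT0. In SCN it was at 111, 106 and 107 CPM at CT8 and 74.4, 73.7 and 65.5 at CT0. Neither pair of times overlapped, and the peaks were CT12.3 and CT8.64, 3.66 h apart on control and 4.01 h on MCD (95% interval -6.18 to -1.83, adjusted p = 0.0138 by edgeR's quasi-likelihood test). The Herpud1 call was lost without the libraries of replicate number 1 or 2, where the adjusted p reached 0.265. Dnajb9, a cochaperone, was 4.68 h earlier in SCN on control and in near-opposite phase on MCD, 10.94 h apart (95% interval 8.58 to 13.29, which spans 12 h), with liver peaks at CT13.5 and CT21.6 on the 2 diets.

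The 8 members among 14 glucocorticoid and fasting responsive genes were mixed, with fitted peaks of 6 earlier in SCN and of 2 later. The 95% interval of the control gap lay below 0 for Per1, Tsc22d3 and Mt2 and above 0 for Klf9. It included 0 for Cdkn1a (-4.87 to 0.93 h), Zbtb16 (-12.24 to 0.77 h) and Ddit4. For Dusp1 it ran past opposite phase (-13.78 to -6.17 h), so no order of its peaks can be read. On MCD 5 of 8 were called for a tissue difference, against 27.9% of all genes tested. These 5 include Per1 and Tsc22d3, which the core clock and output lists above also counted. Dusp1, a MAP kinase phosphatase that is also an immediate early gene, was 9.97 h apart on control (SE 1.78) and 11.37 h on MCD (adjusted p = 1.6e-07 by edgeR's quasi-likelihood test), with SCN peaks at CT4.68 and CT3.07. Mt2, a metallothionein of a family with similar copies, was 4.21 h earlier in SCN (SE 1.57), and Cdkn1a (p21) 1.97 h earlier (SE 1.41), a gap under 2 SE. On MCD the 95% interval of the gap included 0 for both, at -4.04 to 0.11 h for Mt2 and -4.93 to 0.82 h for Cdkn1a. Of the 13 immediate early genes, 11 were in both tables and 6 were members. On control 5 of these had the larger fitted range in SCN, but the 95% interval of the difference included 0 for all 6. On MCD that interval lay above 0 for Junb (1.03 to 2.77 log2) and Nr4a1 (0.42 to 3.18). It lay below 0, with the larger range in liver, for Egr1 (-3.42 to -1.08), and included 0 for Dusp1 and Arc. Junb had ranges of 1.65 log2 in SCN and 1.51 in liver on control, and on MCD it was rhythmic in SCN (range 2.16) and not called in liver (0.26, adjusted p = 0.811 by edgeR's quasi-likelihood test). For Egr1 and Arc the SE of the gap was 3.96 and 4.46 h, and no order of their peaks can be read.

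Few other listed genes were members. Fbxl21, which acts on CRY proteins, had a range of 2.68 log2 in SCN with a peak at CT8.93 and of 1.15 in liver, a difference of 1.53 on control and 2.14 on MCD (95% interval 1.55 to 2.73). In liver it averaged 1.47 CPM and was not called on MCD (adjusted p = 0.266 by edgeR's quasi-likelihood test). Timeless, a replication fork gene, was the other member of the 10 clock protein turnover genes. Of 12 cholesterol genes 11 were in both tables and 2 were members; Fdft1 (squalene synthase) peaked 3.42 h earlier in SCN, and its call for a tissue difference on MCD was lost when any of 5 single libraries was left out. Usp2 and Nampt, with liver ranges of 5.53 and 1.78 log2, were not members, since their SCN ranges were 0.27 and 0.08.

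Some of these genes overlap others in the annotation, and the sources used here do not give a strand setting for the counting. Examples are that Nr1d1 overlaps Thra, Dbp overlaps Sphk2, Gss overlaps Acss2, Junb overlaps Prdx2 and Fdft1 overlaps Ctsb on the opposite strand, and Per3 overlaps Camta1 on its own strand.

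The share called different between tissues on MCD is given here by class on control. Over all members tested, a difference was called, against 27.9% of all genes tested, in 112 of 530 genes with peaks within 3 h (21.1%), 168 of 479 earlier in SCN (35.1%), 92 of 413 later in SCN (22.3%) and 97 of 342 opposite (28.4%). Within the 234, which were chosen on the same MCD libraries, these were 38 of 88, 70 of 78, 33 of 35 and 31 of 33. No test was run between the classes. Of the 88 genes with peaks within 3 h, 70 were within 3 h again on MCD.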

How the data were processed

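Per the submitters' processing notes, Trimmomatic, HISAT2, StringTie and DESeq2 were used with GRCm39; no versions, annotation or strand setting were found in the labels. The authors deposited raw gene counts per library, with a separate file for each tissue. A pair of control CT8 columns carries the same name in each file, and they are called a and b. Exon-level files were not used here. TMM-scaled counts were turned to log2 CPM (prior count 2) and fitted with a 24 h cosine and sine and a sex term (R 4.3.3, edgeR 4.0.16, limma 3.58.1). MCD counts passing filterByExpr (minimum count 10) were tested with edgeR's quasi-likelihood test, per tissue or jointly over 36 libraries, with Benjamini-Hochberg adjustment. DESeq2 1.42.0 and limma-voom were alternatives. Members, gene lists and the rule for named genes (core clock and common output members, up to 4 per other list, and extremes of gap and range among members of at least 1 CPM called in both tissues on MCD) were chosen with earlier results of these data known. The tests were run on simulated data first. Depth and 3 libraries per group set the precision, and no replicate pair agreed within counting noise. Some items are not reported here.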

Additional observations from a re-analysis of the deposited data

Results flagged for a closer look

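The rhythm on MCD differed between SCN and liver, by edgeR's quasi-likelihood F test of the joint model (Benjamini-Hochberg over all genes tested), in the following named members; each value is an adjusted p. Among core clock genes it was 1.99e-12 for Arntl, 1.82e-12 for Npas2, 1.6e-07 for Per1, 2.5e-05 for Per2, 4.4e-11 for Per3, 9.17e-12 for Cry1, 0.00221 for Cry2, 8.56e-06 for Nr1d1, 0.000183 for Nr1d2, 4.24e-10 for Ciart, 0.00148 for Bhlhe40, 3.42e-06 for Bhlhe41, 1.22e-12 for Dbp, 4.4e-11 for Tef, 0.0422 for Hlf and 0.000133 for Nfil3. Among clock protein turnover and output genes it was 3.51e-09 for Fbxl21, 2.07e-08 for Wee1, 0.000215 for Tsc22d3, 0.0113 for Lonrf3, 2.15e-07 for Por and 2.48e-07 for Coq10b.

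By the same test, among stress, glucocorticoid, immediate early, folding and cholesterol genes, the adjusted p was 0.0172 for Hspa1b, 0.0144 for Hspb1, 0.0137 for Hspa1a, 1.6e-07 for Dusp1, 0.0155 for Mt2, 0.00106 for Junb, 0.00163 for Egr1, 0.0138 for Herpud1, 0.000102 for Dnajb9 and 0.0295 for Fdft1. Among members with large swings or wide gaps, picked in part by their rhythm calls in the same MCD libraries, it was 4.16e-06 for Dhrs9, 0.00217 for Rgs16, 0.000121 for Nat8f7, 0.000118 for Nat8f3, 0.00012 for Gss, 0.00174 for Cables1, 1.25e-06 for Sik1, 0.00175 for Arl4d, 1.41e-07 for Rhou, 0.000357 for Slc25a44, 4.7e-07 for Mov10, 5.39e-05 for Nnmt, 0.000101 for Hmgb3 and 3.51e-07 for Tmem51. Of these, the calls for Hlf, Hspa1b, Hspb1, Hspa1a, Mt2, Herpud1 and Fdft1 were lost under at least 1 other setting, and those for Cry2, Bhlhe40, Lonrf3 and Rgs16 only without the libraries of a replicate number. The test does not separate peak from range.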

How the results depend on the processing

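Requiring a mean of 1 CPM in both tissues left 1098 members, 327 with peaks within 3 h and 535 with the larger range in liver; a range of 1 log2 left 354, 122 and 156. Leaving out libraries moved the genes called on MCD between 1793 and 5730 for liver rhythm, 251 and 2420 for SCN rhythm and 1076 and 4119 for the tissue difference, the members called in both tissues between 57 and 248, and those called for the difference between 225 and 490. The lowest of these came from leaving out all libraries of 1 replicate number, and of these number 2 gave the fewest except for liver rhythm, where number 1 did; leaving out single libraries gave no fewer than 4409, 1494, 3475, 202 and 411. With the replicate block the counts were 5042, 1956 and 3404 genes and 216 members called in both tissues. Same-numbered libraries did not deviate together by the bound used (18 pairs, median correlation 0.0254, none over 0.1), and were treated as sharing only a number, although 12 of 18 correlated best with their own number, a hint of pairing from the data that the labels do not give. Under the replicate block the adjusted p for the tissue difference was 0.0608 for Hlf, 0.055 for Hspa1a, 0.0517 for Herpud1 and 0.0784 for Fdft1. By limma-voom it was 0.0985 for Fdft1 and 0.0774 for Hspb1, and without the 3 SCN females 0.0809 and 0.0681. For Mt2 it was 0.0898 over all libraries of both diets. Leaving out the 3 SCN females of each diet, chosen after seeing the data, gave 201 members called in both tissues, 190 of them among the 234, and 434 called for the difference. On MCD the median correlations of the SCN females at CT0, CT4 and CT20 were 0.939, 0.868 and 0.922. A male SCN library at CT20 was at 0.936, below the CT0 female, so the 3 did not stand apart as a set on MCD. The CT4 female on MCD had the lowest correlation, at a total of 25.3 M.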
